A study of Mus musculus with 6 samples.

Results

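The genes described here keep the endoplasmic reticulum (ER) working as the place where secreted and surface proteins are made. They are chaperones, disulfide isomerases, degradation and translocation components, and the sensors and factors of the unfolded protein response. The 41 members were taken by gene symbol from the 55421 genes of the deposited table. All 41 had a mean of at least 10 normalized reads and entered the test of 13562 genes. A second table row for Ddit3, under another gene identifier, had 0 reads in every library and was not tested. The RNA came from germinal centre B cells, in which antibody genes are mutated and better-binding clones are kept after immunisation. The SFR KO mice carry a deletion of the SLAM family receptor genes that runs from Cd244 to Slamf6 and also covers Cd48, Cd84, Ly9, Slamf1 and Slamf7. The wildtype mice do not carry it. Both groups were C57BL/6 GFP reporter mice given NP(18)OVA in alum, spleens were taken on day 9, and GFP+ cells were sorted, so the gate follows the reporter. The labels state no age and do not say that each of the 3 SFR KO and 3 wildtype libraries is a separate mouse. P-values therefore measure the spread between these samples, which may be technical.

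Proteins bound for the cell surface, the organelles or secretion enter the ER through the SEC61 channel while they are made. Inside, HSP70 and HSP90 family chaperones, lectins and disulfide isomerases fold them, and misfolded chains are sent back to the cytosol for degradation. When folding falls behind, the sensors IRE1 (the gene Ern1), PERK (Eif2ak3) and ATF6 start the unfolded protein response, which raises chaperone transcription and slows translation. B cells depend on this machinery most when they become antibody-secreting plasma cells, where IRE1 splices the mRNA of the transcription factor XBP1.

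Libraries held 28269310 to 33053024 reads assigned to genes. Over the 7 deleted genes together, 17, 5 and 17 reads were found in SFR KO 1, 2 and 3, against 22247, 11043 and 10295 in wildtype 1, 2 and 3. Defining genes of germinal centre B cells were present in all libraries. Bcl6, the transcription factor gene that maintains the germinal centre state, had 13496, 14053 and 14235 normalized reads in SFR KO libraries and 15052, 16046 and 14732 in wildtype libraries. All SFR KO values were lower, and the gene missed the threshold (limma adjusted p = 0.245). Bcl6 had the lowest fitted value, -0.13, of the 12 germinal centre genes listed. Of these 12, 6 had fitted values above 0 and 6 below, with a median log2 difference of -0.01. Groups did not overlap for 4 of them, 3 higher and 1 lower in SFR KO libraries. Limma and edgeR called 0, and DESeq2 called 1, Gcsam, which was higher (limma log2 difference 0.21, DESeq2 adjusted p = 0.0097). Levels of genes listed as markers of other cells differed between libraries. The summed level of 8 neutrophil genes ran from 391.9 to 1992 normalized reads in SFR KO and from 855.2 to 6877 in wildtype libraries, highest in SFR KO 1 and wildtype 1. Of 10 T cell genes, 6 had an unadjusted limma p under 0.05, all higher in SFR KO libraries (60.0%, beside 7.04% of all genes higher), and after adjustment limma and edgeR called 0 and DESeq2 called 1. The summed level of these 10 genes was 7573 to 10030.6 normalized reads in SFR KO and 7243 to 7743 in wildtype libraries. It came mostly from Lck and Cd2, and how much of it came from T cells was not tested. Of 8 resting B cell genes, 7 had fitted values below 0, with a median log2 difference of -0.28, and 4 had an unadjusted limma p under 0.05 (16.1% over all genes), 3 lower and 1 higher in SFR KO libraries. After adjustment 0 passed in limma and edgeR and 1 in DESeq2. Their summed level was 11178 to 18918 normalized reads in SFR KO and 15857 to 19758 in wildtype libraries. The part of these cells in the values below was not tested, but leaving out SFR KO 1 and wildtype 1 is reported.

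Several promoters of the members hold the ER stress response element (ERSE), through which ATF6 is known to act. The sequences are shown to give the letters of this element, and of a shorter form, in members that hold them. The element was searched as CCAAT and CCACG with any 9 bases between them. RefSeq promoters on GRCm38.p6, from 250 bases before to 50 after the start, were found for 33 members and searched on both strands. An exact ERSE was present in 9 of the 33 members (27.3%), against 37 of 27025 genes (0.137%). The 9 were Calr, Canx, Creld2, Derl3, Dnajc3, Hsp90b1, Hspa5, Pdia6 and Syvn1. The shorter ERSE-II, ATTGG and CCACG with any 1 base between them, stood in Dnajb11 and Herpud1 (6.06% of members, 0.0444% of genes). The amino acid response element that ATF4 binds, searched as TTGCATCA, was found in Herpud1 alone (3.03% of members, 1.03% of genes). The XBP1 core TGACGTGG was found in 0 of the 33 and in 0.714% of genes. None of these hits overlapped another. The lines below run 5′ to 3′ on the strand of each gene, with the element in capitals; where it lies on the opposite strand it begins with CGTGG and ends with ATTGG.
Hspa5: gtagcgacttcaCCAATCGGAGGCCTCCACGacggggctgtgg
Hsp90b1, distal: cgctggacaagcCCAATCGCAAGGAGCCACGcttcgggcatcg
Hsp90b1, proximal: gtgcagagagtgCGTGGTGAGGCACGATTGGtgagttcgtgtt
Calr: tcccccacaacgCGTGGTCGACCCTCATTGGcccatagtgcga
Syvn1: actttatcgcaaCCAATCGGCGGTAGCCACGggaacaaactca
Herpud1, ERSE-II: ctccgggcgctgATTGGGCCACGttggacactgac
On GRCm38.p6 these stretches lie at chr2:34772013-34772055 for Hspa5 and chr19:6046520-6046562 for Syvn1, both on the plus strand. The pair in Hsp90b1 lies at chr10:86705626-86705668 and chr10:86705521-86705563, and that of Calr at chr8:84847063-84847105, all on the minus strand. The stretch of Herpud1 lies at chr8:94386365-94386399 on the plus strand. Each lies upstream of the RefSeq start of its gene. The stretch of Hspa5 lies inside the gene as GENCODE M21 places it, since that span begins at 34771970.

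Together the 41 members took 0.714%, 0.663% and 0.679% of all assigned reads in SFR KO 1, 2 and 3, against 0.714%, 0.716% and 0.7% in wildtype 1, 2 and 3. SFR KO 1 lay within the wildtype range and SFR KO 2 and 3 below it. In these bulk samples, fewer cells of a type and less RNA per cell cannot be told apart. Calr, Pdia3, Canx, Hspa5 and Syvn1 made up 36.3% of the members' normalized reads. Levels were compared between genes per kilobase of the longest annotated transcript. On that scale calreticulin, Calr, stood highest, at 8723 ± 725.4 normalized reads per kb in SFR KO and 9300.3 ± 363.8 in wildtype libraries (SD, n = 3 each). The genes Pdia3, Herpud1, Hspa5 and Sec61b followed, at 3900.5 to 5981 reads per kb over all libraries. At the other end, the level was 117.8 reads per kb for the stress factor gene Ddit3, 99.6 for Ppp1r15a, 17.9 for Ern1 and 16.3 for Trib3. The next member above them was Dnajb9, at 258.7.

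**Figure D1:**
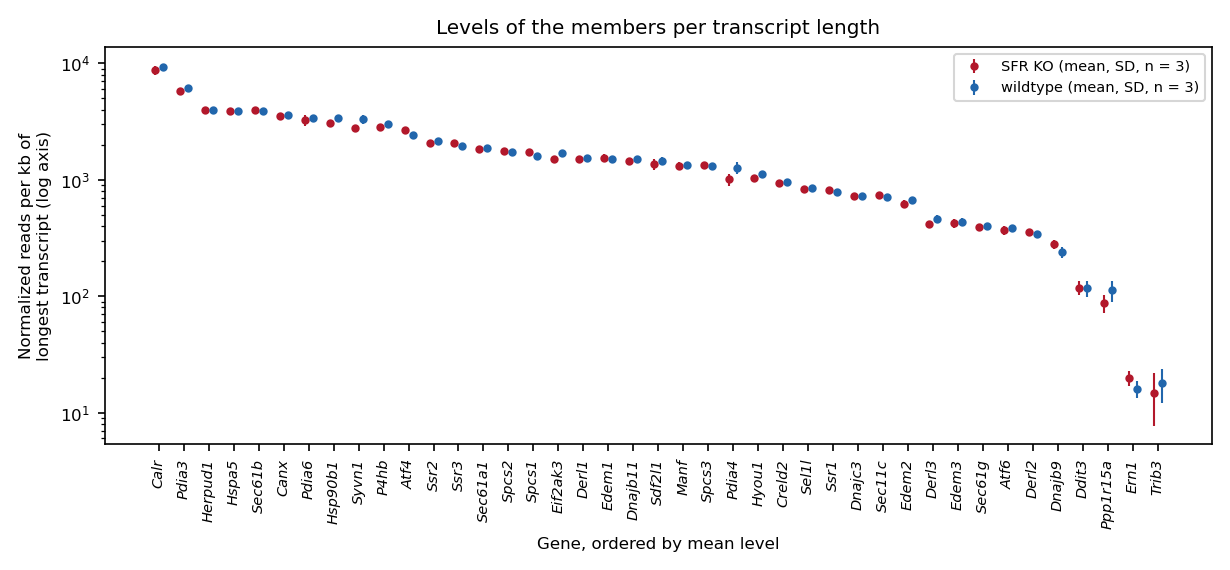
Mean normalized reads per kilobase of the longest transcript for each of the 41 members, on a log axis, with SFR KO in red left of wildtype in blue and bars of 1 SD over 3 libraries. Calr stands highest at 9012 reads per kb over all libraries, and Ddit3, Ppp1r15a, Ern1 and Trib3 lie below the other members in both genotypes.

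The main comparison asked whether the genotypes differed in these transcripts. No member passed the threshold of an adjusted p under 0.05 in limma, which was fitted on log2(normalized reads + 1) over all tested genes. Fold changes on that scale understate the change of low genes. Of the 13562 tested genes, limma called 63 (0.465%) at that threshold, 21 higher (0.155%) and 42 lower (0.31%) in SFR KO libraries, so that 0 of 41 is not far from the background. EdgeR also called 0 members (0.221% of all genes) and DESeq2 called 2, Pdia4 and Syvn1 (3.56% of all genes, 4.88% of members). DESeq2 gave no adjusted p for 2894 of the 13562 genes and for 1 of the 41 members. Its shares here and below count such genes as not called, which lowers the share over all genes more than that of the members. The authors' deposited table held Pdia4 and Syvn1 among its calls, which covered 4.8% of the genes with an adjusted p there. At an unadjusted limma p under 0.05 there were 6 members (14.6%), beside 16.1% of all genes. Of these, 5 were lower (9.07% of all genes) and 1 was higher (7.04% of all genes) in SFR KO libraries. The median log2 difference, SFR KO minus wildtype, was -0.04 over the members and -0.003 over all tested genes. Fitted values were below 0 for 26 members (63.4%) and for 50.7% of all genes.

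The estimates of most members were narrow. For 38 of the 41 the limma 95% interval, which is not adjusted for the number of genes, lay inside 1.5-fold in either direction. Over all tested genes 66.2% had an interval inside 1.5-fold. The exceptions were the low transcripts Ern1, Trib3 and Ppp1r15a. The median spread of members between replicates was 4.79% of the mean in SFR KO and 4.13% in wildtype libraries. Groups did not overlap for 10 members (24.4%), beside 21.7% of all genes. Of these, 8 were lower in SFR KO libraries (19.5%, beside 11.9% of all genes) and 2 higher (4.88%, beside 9.78%).

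**Figure D2:**
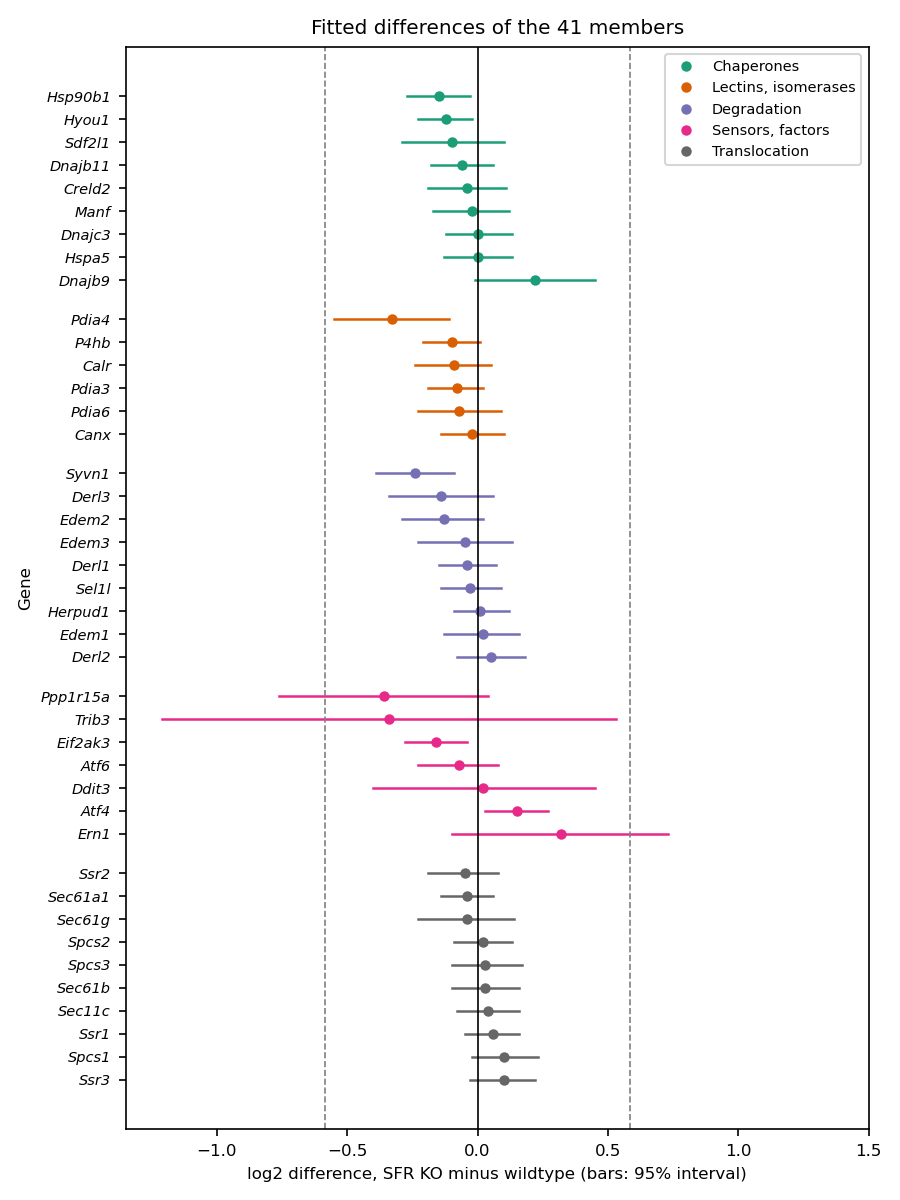
Limma log2 differences, SFR KO minus wildtype, of the 41 members ordered by role, with bars for the 95% interval and dashed lines at 1.5-fold either way. The intervals of 38 members lie between the dashed lines, and those of Ern1, Trib3 and Ppp1r15a cross 1 of them.

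Among the chaperones, the levels of Hspa5 overlapped between genotypes. Hspa5 encodes BiP, the HSP70 chaperone that binds unfolded chains and holds the sensors inactive (chromosome 2, 34771970 to 34777547 on GRCm38, GENCODE M21). It had 15111, 13775 and 14276 normalized reads in SFR KO libraries, against 14134, 15377 and 13795 in wildtype libraries. The groups overlapped fully, with a fold of 0.997 (95% interval 0.911 to 1.09, limma adjusted p = 0.981). Hsp90b1, which encodes the HSP90 chaperone GRP94, had 10449.7, 9605 and 9651 normalized reads in SFR KO and 11529.7, 10883 and 10584 in wildtype libraries. All 3 SFR KO values were below all wildtype values, by a log2 difference of -0.15 ± 0.05 (SE), and the gene missed the threshold (adjusted p = 0.223). Hyou1, a large HSP70-related chaperone that helps BiP exchange its nucleotide, was also without overlap, at 5084, 4893 and 5264 in SFR KO against 5438, 5585 and 5581 in wildtype libraries. Its log2 difference was -0.12 ± 0.05 (adjusted p = 0.248), or -0.08 once each library's trend with GC content was removed.

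The J-domain proteins hand clients to BiP. Dnajb9, whose product also restrains IRE1, had 631.6, 674.4 and 749.3 normalized reads in SFR KO and 656.8, 574.4 and 533.2 in wildtype libraries. SFR KO 1 lay inside the wildtype range, and the log2 difference of 0.22 ± 0.10 missed the threshold (adjusted p = 0.335). Dnajb11 and Dnajc3 had log2 differences of -0.06 ± 0.05 and 0.00 ± 0.05. Sdf2l1, an ER protein that works with J-domain partners, and the small secreted stress proteins Manf and Creld2 lay between -0.10 and -0.02. Manf shares exons with Rbm15b on the same strand and with Dcaf1 on the opposite strand, so its count is uncertain. Of the 9 chaperone genes, 7 had fitted values below 0 and 2 above, with a median of -0.04. Scaling by TMM gave 6 and 3, since Hspa5 then stood just above 0. SFR KO 2 had the lowest level of 7 of these 9 genes.

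The lectin chaperones and disulfide isomerases were the group with the lowest median, at -0.09. Calr and Canx encode calreticulin and calnexin, which hold glycoproteins by their sugars, and Pdia3 encodes the isomerase that works with them. Calr had 20845, 17844 and 18464 normalized reads in SFR KO and 19842, 21229 and 19864 in wildtype libraries. SFR KO 1 was inside the wildtype range and the other SFR KO libraries below it, with a log2 difference of -0.09 ± 0.07 (adjusted p = 0.519). Pdia3 did not overlap between groups, at 15596 to 16742 in SFR KO and 16770.3 to 17245 in wildtype libraries, but by a log2 of only -0.08 ± 0.05. Canx, Pdia6 and P4hb, the last the classical disulfide isomerase, had log2 differences of -0.02, -0.07 and -0.10. P4hb was also without overlap, at 7865 to 8518 in SFR KO and 8538 to 8826 in wildtype libraries.

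Pdia4 had the largest difference in this group. It encodes ERp72, a disulfide isomerase, and lies on chromosome 6, 47796141 to 47813430. It had 2749, 2208 and 2299 normalized reads in SFR KO libraries, against 3425, 2898 and 2798 in wildtype libraries. The groups did not overlap, but SFR KO 1 and wildtype 3 nearly met. The log2 difference was -0.33 ± 0.10, a fold of 0.795 with an interval from 0.682 to 0.927. Limma's adjusted p was 0.156 and edgeR's 0.177, while DESeq2 gave 0.0283, and the authors' deposited table gave 0.0202. Without SFR KO 1 the limma difference was -0.43 (adjusted p = 0.0267), and without both SFR KO 1 and wildtype 1 it was -0.34 (adjusted p = 0.0262). Without any 1 of the other libraries limma's adjusted p was 0.228 to 0.415. All 6 genes of the group had fitted values below 0 in the main fit, with TMM scaling, with GC trends removed and without those 2 libraries.

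**Figure D3:**
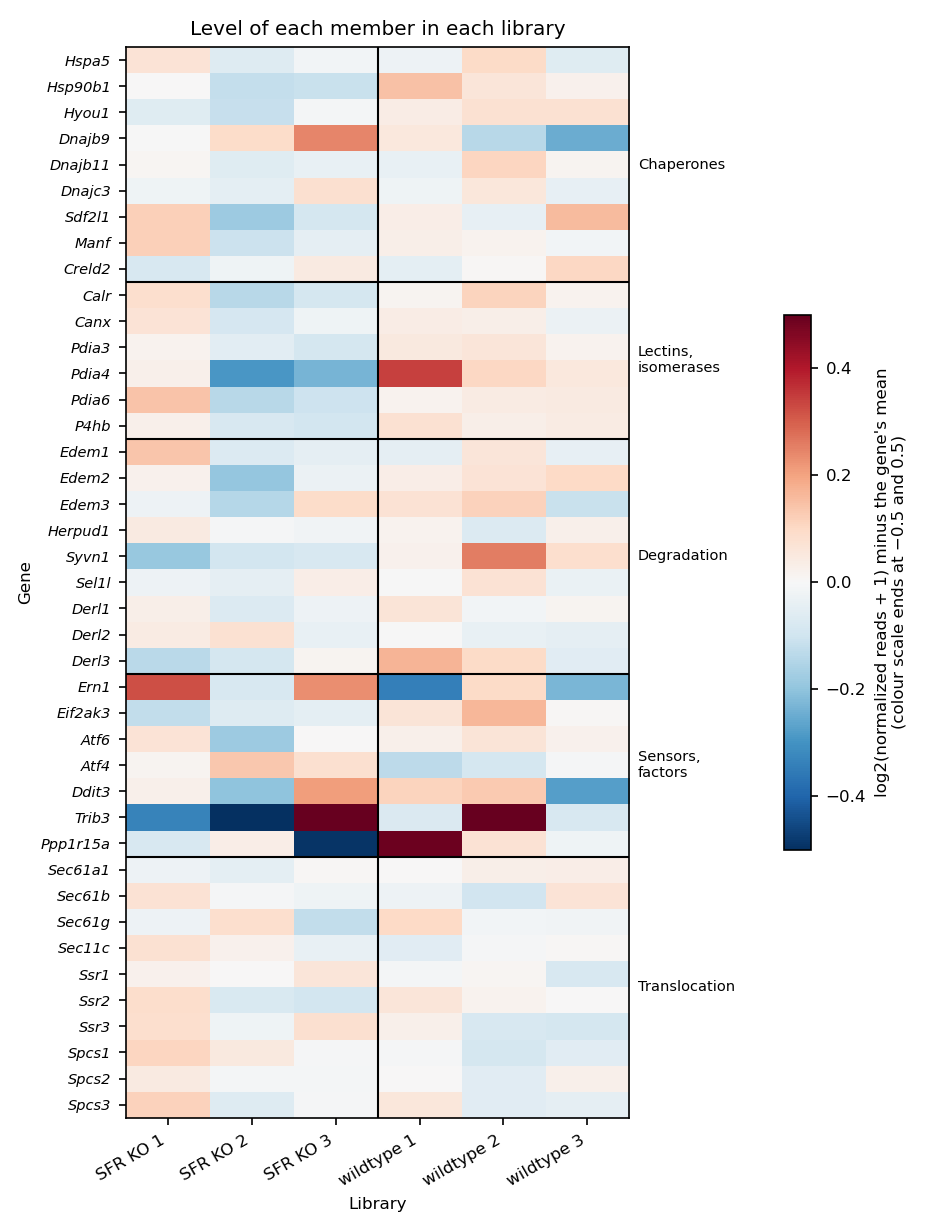
Log2(normalized reads + 1) of each member in each library minus the mean of that gene over the 6 libraries, with SFR KO libraries left of wildtype libraries and lines between role groups. Most cells are pale, and SFR KO 2 holds the lowest value of 20 of the 41 members. The colours of Trib3 reach the end of the scale and those of Ppp1r15a come close to it.

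The degradation genes send misfolded proteins out of the ER. Herpud1, which organises the export complex, was the highest of them per kilobase. It had 7998, 7716 and 7659 normalized reads in SFR KO and 7855, 7392 and 7894 in wildtype libraries, overlapping groups with a log2 difference of 0.01 ± 0.05 (adjusted p = 0.917). Syvn1 encodes HRD1, the ubiquitin ligase at the centre of that complex (chromosome 19, 6046576 to 6053712). Its levels were 10903, 11663 and 11741 normalized reads in SFR KO, against 12613, 14825 and 13165 in wildtype libraries. Every SFR KO library was below every wildtype library, and wildtype 2 stood above the rest. The log2 difference was -0.24 ± 0.07, a fold of 0.846 (interval 0.764 to 0.938). Limma's adjusted p was 0.135 and edgeR's 0.145, while DESeq2 gave 0.0158, and the authors' deposited table gave 0.0143. With GC trends removed the difference was -0.17 (limma adjusted p = 0.305). Syvn1 has a transcript of 56.6% GC, beside a median of 48.9% over the members, and it overlaps the exons of Mrpl49 on the other strand, so its reads are uncertain where counting ignored strand.

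The other degradation genes had smaller fitted differences than Syvn1. Sel1l, its scaffold, and the channel-forming derlins Derl1 and Derl2 had log2 differences of -0.03, -0.04 and 0.05. Derl2 shares exons with Mis12 on the opposite strand, so its count is uncertain where counting ignored strand. Derl3, the derlin typical of secretory cells, stood at -0.14 ± 0.09 with overlapping groups. The mannosidase-like proteins Edem1, Edem2 and Edem3 mark glycoproteins for removal. They had log2 differences of 0.02, -0.13 and -0.05, and Edem2 had no overlap, at 1290 to 1499 normalized reads in SFR KO and 1508 to 1580.4 in wildtype libraries. Together the 9 degradation genes took 0.148%, 0.142% and 0.145% of reads in SFR KO and 0.151%, 0.157% and 0.15% in wildtype libraries, without overlap. That separation came with Syvn1. Without it the summed level was 34571, 32179 and 33219 normalized reads in SFR KO and 33712, 34009 and 33092 in wildtype libraries, which overlap.

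The 3 sensor genes had fitted differences of both signs. Eif2ak3 encodes PERK, the kinase that slows translation under ER stress by phosphorylating eIF2alpha. It had 6604, 6868 and 6951 normalized reads in SFR KO and 7513, 8068 and 7228 in wildtype libraries. All SFR KO values were lower, by a log2 of -0.16 ± 0.05, and the gene missed the threshold (adjusted p = 0.208). Ern1, for IRE1, was scarce, with 153.7, 116 and 144.2 normalized reads in SFR KO and 96.6, 131.3 and 104.6 in wildtype libraries. Its groups overlapped, and a log2 difference of 0.32 ± 0.19 had an interval from -0.10 to 0.73 (adjusted p = 0.445). Atf6, the membrane-bound transcription factor, had 2865, 2406 and 2729 in SFR KO and 2779, 2854 and 2769 in wildtype libraries, a log2 difference of -0.07 ± 0.07 (adjusted p = 0.649).

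Atf4, the transcription factor whose translation rises when PERK acts, was 1 of the 2 members higher in SFR KO libraries without overlap. It had 5180.0, 5628 and 5424 normalized reads in SFR KO libraries, against 4679, 4821 and 5107 in wildtype libraries. The lowest SFR KO value was above the highest wildtype value, with a log2 difference of 0.15 ± 0.05 that missed the threshold (adjusted p = 0.220, and 0.121 with GC trends removed). Ddit3, the pro-apoptotic factor CHOP downstream of ATF4, had 115.3, 98.5 and 131.1 normalized reads in SFR KO and 122.6, 124.1 and 93.4 in wildtype libraries. The groups overlapped, with a fold of 1.02. The interval ran from 0.757 to 1.36 and does not exclude a small difference. In the annotation a second gene identifier, also named Ddit3, covers the same exons on the same strand, and exons of Mars lie on the opposite strand, so the count of Ddit3 is uncertain. The feedback genes Ppp1r15a, for the phosphatase subunit GADD34, and Trib3, a pseudokinase, had log2 differences of -0.36 ± 0.18 and -0.34 ± 0.39 with overlapping groups. Ppp1r15a stood at 259.1, 280.3 and 194.8 normalized reads in SFR KO and 385.6, 288.2 and 270.2 in wildtype libraries. The summed level of the 7 sensors and factors was 15202, 15416 and 15620.1 in SFR KO and 15606, 16337 and 15601 in wildtype libraries, where SFR KO 3 stood above wildtype 1 and 3. As a share of all assigned reads the same group did not overlap, at 0.0505% in SFR KO 3 against 0.0506% in wildtype 3, so the scale decides whether the groups meet. Without Eif2ak3, the most abundant of them by reads, the sums were 8598, 8548 and 8669 in SFR KO and 8092, 8268 and 8374 in wildtype libraries. Every SFR KO sum was then higher, but Atf4, itself higher without overlap, was the most abundant of the 6 genes left. Of the others, Ern1 and Ddit3 had fitted values above 0, and Atf6, Trib3 and Ppp1r15a below 0.

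The translocation genes were the role group with a median above 0, at 0.03. They encode the SEC61 channel (Sec61a1, Sec61b, Sec61g), the translocon-associated proteins (Ssr1, Ssr2, Ssr3) and the signal peptidase that trims the new chains (Sec11c, Spcs1, Spcs2, Spcs3). Differences ran from -0.05 for Ssr2 to 0.10 for Spcs1, and every interval lay inside 1.5-fold. Sec61b, the highest per kilobase, had 2962, 2809 and 2779 normalized reads in SFR KO and 2772, 2640.2 and 2958 in wildtype libraries. The groups overlapped, with a log2 difference of 0.03 ± 0.06 (adjusted p = 0.845). Spcs1 was the 1 gene of the group without overlap, at 2212, 2128 and 2047.3 in SFR KO and 2045.8, 1936 and 1974 in wildtype libraries, where SFR KO 3 and wildtype 1 almost met. SFR KO 1 had the highest level of 7 of these 10 genes. Without SFR KO 1, 4 of the 10 were below 0 and 6 above, with a median of 0.00. Spcs1 shares exons with Glt8d1 on the opposite strand.

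**Figure D4:**
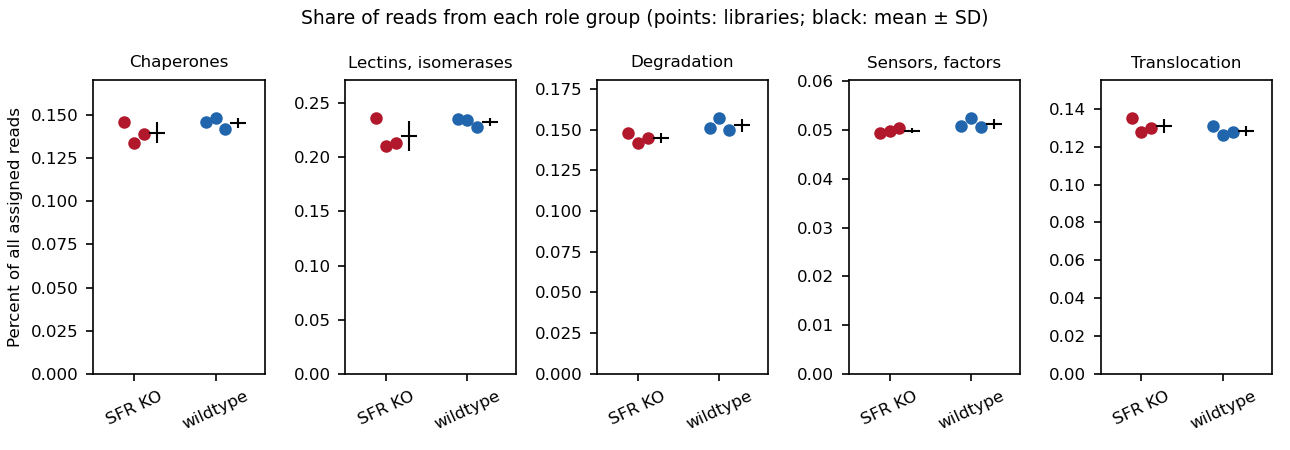
Percent of all assigned reads that fell on each role group, with SFR KO libraries in red left of wildtype libraries in blue and the mean and SD over 3 libraries in black. The vertical axes start at 0 and differ between panels. The groups overlap for chaperones, lectins and isomerases, and translocation, and do not overlap for degradation. For sensors and factors SFR KO 3 (0.0505%) and wildtype 3 (0.0506%) nearly meet, and their summed normalized reads overlap.

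The members also varied between libraries of 1 genotype. SFR KO 1 held the highest level of 14 of the 41 members and SFR KO 2 the lowest of 20. The same counts were not made over all tested genes. Limma's library weights, fitted over all tested genes, are lower where a library departs more from its group. They were 0.422, 2.469 and 0.969 in SFR KO 1, 2 and 3, and 0.901, 1.082 and 1.015 in wildtype 1, 2 and 3. The median deviation of the members from the mean of each gene was 0.02, -0.07 and -0.02 on the log2 scale in SFR KO 1, 2 and 3, against 0.02, 0.04 and 0.00 in wildtype 1, 2 and 3. SFR KO 1 had the highest neutrophil, red cell and macrophage levels of its group, and its part in the members' values was not tested. For the lectin and isomerase group its deviation was 0.05, against -0.11 and -0.09 in SFR KO 2 and 3 and 0.03 to 0.05 in wildtype libraries.

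Other genes of the pathway were counted from 6 lists. Neither limma nor edgeR called any of the 117 tested (0), while DESeq2 called 4 (3.42%). An unadjusted limma p under 0.05 was found for 20 (17.1%, beside 16.1% of all genes). Groups did not overlap for 27 of them (23.1%, beside 21.7%). The median log2 difference was -0.03. Xbp1, the transcription factor that IRE1 activates by splicing, had 5228, 5725 and 5891 normalized reads in SFR KO and 5576, 5566 and 5597 in wildtype libraries. Its log2 difference was 0.01 ± 0.05 (adjusted p = 0.965), and gene counts cannot show the spliced form.

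Genes known as ATF4 targets had a median of -0.10, or -0.05 with GC trends removed. Fitted values were below 0 for 10 of 15 (66.7%, beside 50.7% of all genes). The transcripts of the list had a median GC content of 56.3%, beside 49.4% over all tested genes. Of these 15, 5 had groups without overlap, all lower in SFR KO libraries (33.3%, beside 11.9% of all genes lower without overlap), and 4 had an unadjusted limma p under 0.05 (26.7%, beside 16.1%). Cars, the cysteinyl-tRNA synthetase gene, had 1342, 1367 and 1278 normalized reads in SFR KO against 1582, 1649 and 1639 in wildtype libraries. The gap between groups was wider than either group's range, with a log2 difference of -0.29 ± 0.06 (limma adjusted p = 0.0627, DESeq2 0.0104). Without SFR KO 1, limma gave 0.0382, and without any 1 of the other libraries 0.148 to 0.216. Shmt2, of mitochondrial serine metabolism, had 6182, 5564 and 5677 in SFR KO against 6688, 6594 and 6798 in wildtype libraries. Its log2 difference was -0.21 ± 0.05 (limma adjusted p = 0.121, DESeq2 0.0279), and limma gave 0.0213 without SFR KO 1 and 0.242 to 0.362 without any 1 of the other libraries. With GC trends removed the difference was -0.14 (0.298). Atf4 itself was higher in all 3 SFR KO libraries, as given above.

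Among folding genes outside the 41 members, 1 was called higher by DESeq2. Txndc5, which encodes a further disulfide isomerase and is also on the plasma cell list, had 20832, 23366 and 24312 normalized reads in SFR KO libraries, against 16636, 18443 and 19743 in wildtype libraries. The lowest SFR KO library was above the highest wildtype library. The log2 difference was 0.32 ± 0.08 (limma adjusted p = 0.103, DESeq2 0.00109), and limma gave 0.0193 without SFR KO 1 and 0.144 to 0.333 without any 1 of the other libraries. Prkcsh, the glucosidase II subunit that trims sugars for the lectins, was at -0.15 ± 0.05 (adjusted p = 0.199). In the list of response factors, Map3k5, the stress kinase ASK1, was at -0.22 ± 0.06 (limma adjusted p = 0.124, DESeq2 0.0435) and Mbtps2, the protease that releases ATF6, at 0.21 ± 0.07 (0.210).

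Of the remaining lists, none had a member called by any of the 3 tools. Among translocation and glycosylation genes, Rpn1, a subunit of the oligosaccharyltransferase, was at -0.16 ± 0.05 (limma adjusted p = 0.200) and Tram1, a partner of the channel, at 0.13 ± 0.05 (0.245). For degradation, Ube2g2, a ubiquitin-conjugating enzyme, was at -0.15 ± 0.06 and Fam8a1, a cofactor of HRD1, at 0.26 ± 0.11. In vesicle transport, Sec24c and Sec24d, cargo adaptors of the coat that leaves the ER, were at -0.16 ± 0.05 and 0.47 ± 0.18. Sec24d overlapped between groups, at 505.5 to 680.9 normalized reads in SFR KO and 363.1 to 592.2 in wildtype libraries.

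**Figure D5:**
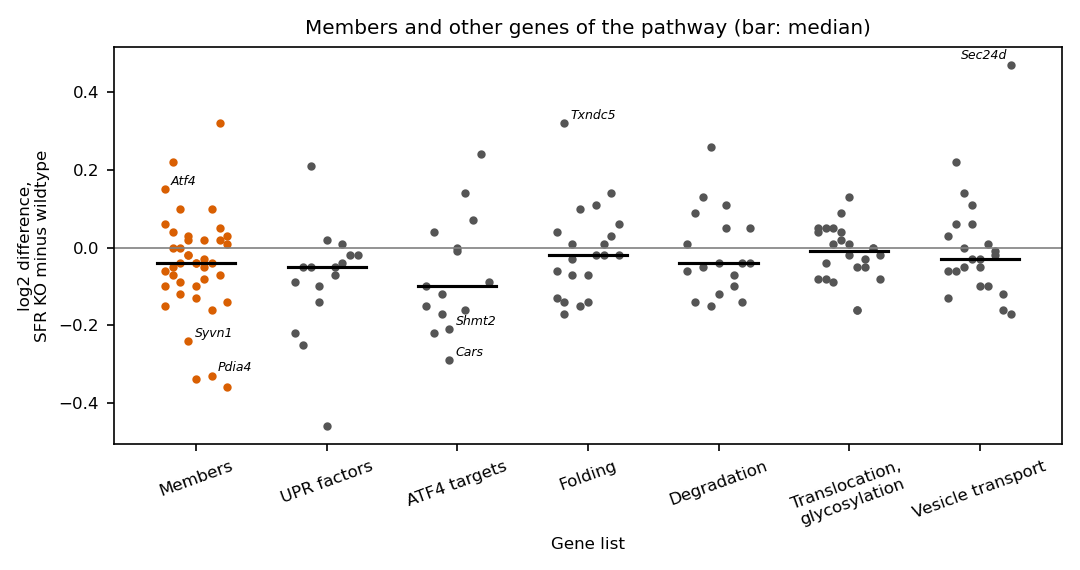
Limma log2 differences, SFR KO minus wildtype, of the 41 members in orange and of the tested genes in 6 other pathway lists in grey, with a bar for each median. The medians lie between -0.10 for ATF4 targets and -0.01 for translocation and glycosylation genes, and no gene shown passed the limma threshold.

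Plasma cell genes were set beside the members because secreting cells carry the most ER. Of 14 tested, 0 passed in limma or edgeR and 2, Jchain and Txndc5, in DESeq2 (14.3%, beside 3.56% of all genes). The unadjusted limma p was under 0.05 for 4 (28.6%, beside 16.1%), 3 higher and 1 lower in SFR KO libraries. The summed level was 136627 to 143439 normalized reads in SFR KO and 132573 to 137935 in wildtype libraries, with Pou2af1 as the most abundant gene, which germinal centre cells also express. Jchain, for the joining chain of secreted antibody, had 26630.1, 25538 and 24789 in SFR KO against 22214, 23175 and 22310.0 in wildtype libraries. Its log2 difference was 0.18 ± 0.05 (limma adjusted p = 0.128, DESeq2 0.0104). With GC trends removed the difference of Jchain was 0.11 (limma adjusted p = 0.381). Sdc1, the surface marker of plasma cells, was low, at 29.6, 27.4 and 28.1 in SFR KO and 46.5, 35.9 and 47.7 in wildtype libraries, lower in SFR KO without overlap (limma adjusted p = 0.302). Tnfrsf17, for a survival receptor of plasma cells, had 0 to 3.94 normalized reads per library. The regulator genes Prdm1 and Irf4 were at 0.42 ± 0.18 and -0.13 ± 0.18, with overlapping groups. Mzb1, a BiP partner in antibody assembly, was at -0.06 ± 0.08. The part of plasma cells in the members' values was not tested.

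Members with an exact ERSE in the promoter had log2 differences from -0.24 to 0.00, with a median of -0.07 over 9 genes. The 24 others with a promoter ran from -0.36 to 0.32, with a median of -0.01. Syvn1 holds the element, while Pdia4, the other member called by DESeq2, has 3 CCAAT boxes but no exact ERSE in this window. This is a description of 33 genes measured in the same 6 libraries and carries no test.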

How the data were processed

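RNA of 6 libraries was compared, 3 SFR KO and 3 wildtype, grouped by the labels and numbered in accession order. The build GRCm38 and the tools featureCounts 1.5, STAR 2.5 and DESeq2 1.14.1 are named per the submitters' processing notes, while annotation, strand setting and filters were not given in the sources used here. Signal values deposited by the authors are gene counts divided by DESeq2 size factors, beside their own log2 fold changes, standard errors, test score (the column stat), p-values and adjusted p-values. Whole reads were recovered for 100% of values (tolerance 1e-06) and gave 28269310 to 33053024 reads per library.

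From these values, limma 3.58.1 (R 4.3.3, two-sided, trended prior) was fitted on log2(normalized reads + 1) for the 13562 genes averaging 10 or more normalized reads, with Benjamini-Hochberg adjustment over all of them and a threshold of 0.05. EdgeR 4.0.16 and DESeq2 1.42.0 used the recovered reads, with 30 calls by edgeR and 483 by DESeq2. The script was tested on simulated data. Other alternatives changed the pseudocount, filter, scaling, prior, library weights, GC trend and libraries. Leaving out SFR KO 1 and wildtype 1 together was chosen after seeing the data. Gene positions, lengths and GC content came from GENCODE M21, and promoters from RefSeq. Protein sequences were not used here.

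The members and lists were chosen with earlier results of these data known. Every library's values are given for members called by a tool, without overlap and with an unadjusted p under 0.05, or highest per kilobase in their role, and for a set of fixed names. In each other pathway list, where limma called no gene, the 2 genes with the lowest limma p were named, beside the fixed names. Further members were named to account for all of them.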

Additional observations from a re-analysis of the deposited data

How the results depend on the processing

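No paired analysis was possible because the labels carry no replicate numbers. Members called lower numbered 0 in the main fit, 2 with DESeq2, 1 with array weights, 1 without both SFR KO 1 and wildtype 1, and 0 to 1 when each library was left out, the 1 being Pdia4 without SFR KO 1. Members called higher were 0 in all 17 alternatives. Other pathway genes called higher, 0 in the main fit, were 1 with DESeq2, 1 with array weights, 1 without both libraries and 0 to 1 with each left out. Those called lower were 3 with DESeq2, 1 with a robust prior, 4 with array weights, 4 without both libraries and 0 to 2 with each left out. Calls over all genes moved too, with 63 in the main fit, 30 with edgeR, 483 with DESeq2, 161 with a robust prior, 630 with array weights, 16 with GC trends removed, 480 without SFR KO 1 and 420 without both libraries, and 11 to 26 without any 1 of the other libraries. Members lower without overlap, 8 in the main fit, were 5 with TMM scaling, 5 with GC trends removed, 18 without both libraries and 8 to 15 with each left out. Those higher, 2 in the main fit, were 4 without both libraries and 3 to 5 with each left out; fewer samples overlap less often by construction. The member median stayed between -0.063 and -0.010. Of 526 values of 31 named genes, 488 kept direction and side of the threshold, 23 gained the threshold and 15 changed direction, all near 0. Hspa5 was 0.002 with TMM and edgeR and -0.04 to 0.04 with each library left out. Ddit3 was -0.06 with array weights and -0.11 to 0.13, Herpud1 -0.02 to 0.03, Xbp1 -0.03 to 0.06 and Sec61b -0.01 to 0.07 with each library left out. Without both libraries Sec61b was -0.0002 and Irf4 0.03. The cause of these changes was not tested beyond the fewer samples. The intervals of Ern1, Trib3, Ppp1r15a and Ddit3 were the widest among the members, and the part of read depth in this was not tested.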
